A study of Homo sapiens with 6 samples.

Results

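Clade B serpins are the intracellular branch of the serpin family. The 10 genes described here, SERPINB1 to SERPINB10, were taken by gene symbol, and 9 of them had a transcript cluster among the 17737 named genes of the array. SERPINB6 was not analysed here because no named transcript cluster carried its symbol. The platform annotation named 8 of them. SERPINB2 was named only through the study's spreadsheet, which lists genes that changed with OSM in these cells or in fibroblasts, so that it could be read here because it differed, and counts are also given without it. Each had 1 transcript cluster. The RNA came from MDA-MB-231 cells, which come from a human triple-negative breast cancer. The OSM-overexpressing line, MDA-MB-231-hOSM, carried the pUNO1-hOSM vector for human oncostatin M (OSM), a cytokine of the IL-6 family, and the control line, MDA-MB-231-hC, carried the empty pUNO1 vector. Each was stably transfected with 2 μg of vector, and both were kept in parallel under blasticidin at 10 μg/mL, so the controls also carried the plasmid and the selection. RNA was taken at 3 passages per line, numbered as sets 1 to 3, and hybridized to Human Clariom S arrays (n = 3 arrays per line). The sources used here do not give the promoter that drives OSM, nor whether the lines are clones or pools. Since the replicates are passages of 1 line each, an effect of OSM cannot be told apart from a change fixed when the lines were made and selected.

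A serpin holds its reactive centre loop out as bait. When the target protease cuts the loop, the serpin springs into a new fold and traps the enzyme in a covalent complex. Clade B members lack a classical secretion signal and mostly stay in the cytoplasm or nucleus, where they guard cells against proteases released from granules and lysosomes. In the human genome they form a large cluster on chromosome 18 and a small one on chromosome 6. Several chromosome 18 members are known as products of squamous epithelium, and SERPINB5 (maspin) as a protein of normal mammary epithelium.

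Values are log2 signals, 1 per transcript cluster and array, as deposited. A level can be compared between arrays for 1 gene, but not between genes. The file has no detection calls, so the mean log2 signals of 348 olfactory receptor genes, which these cells are not expected to use, served as a guide to background, with a 95th percentile of 5.78. A gene was called higher or lower at an adjusted p under 0.1 (Benjamini-Hochberg over 21448 transcript clusters, limma with the set as a block) and a change over 2-fold. Of the 348 olfactory receptor genes 5 were themselves called. Taken per line, their 95th percentile was 5.71 in MDA-MB-231-hOSM and 5.83 in MDA-MB-231-hC, so readings near the guide depend on which is used. The 6 array medians lay between 6.82 and 6.85. In each set the arrays of both lines departed from their group means as mirror images, and across transcript clusters their deviations had a Pearson's r of −0.993 for set 1, −0.995 for set 2 and −0.992 for set 3, so that differences within a set carry nearly all the replicate information and spread between passages may be missing. OSM, the transfected gene, had log2 signals of 14.90, 14.82 and 14.69 in MDA-MB-231-hOSM and of 5.06, 5.11 and 5.26 in MDA-MB-231-hC. As cells of this line are known for, VIM, CD44, EGFR, KRT18, AXL, MSN and CAV1 had mean log2 signals from 11.79 to 16.36 in MDA-MB-231-hOSM and from 11.61 to 16.30 in MDA-MB-231-hC. Of 6 measured luminal or epithelial genes that the line is known to lack or hold low, 4 (ESR1, PGR, CDH1 and FOXA1) lay below the guide in both lines. EPCAM, an epithelial adhesion protein, did not, at 8.53 in MDA-MB-231-hOSM against 9.63 in MDA-MB-231-hC (log2 fold change −1.10, adjusted p = 0.0526), a call that was lost on leaving out any of the sets (−1.38 without set 1, −0.66 without set 2 and −1.26 without set 3). GATA3 also lay above the guide in both lines, at 6.78 in MDA-MB-231-hOSM and 7.39 in MDA-MB-231-hC. It was not called (log2 fold change −0.61, adjusted p = 0.0274 from limma). KRT18 was called higher (1.09, adjusted p = 0.00791), but not without set 2 (0.98) or set 3 (adjusted p = 0.122).

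The promoters of the 6 members that were higher in MDA-MB-231-hOSM are shown first, because they put side by side the near-copies SERPINB3 and SERPINB4 and members whose sequences differ. Each is the 250 bases before the first annotated RefSeq start (GRCh38.p14), 5′ to 3′ on the strand of the gene. SERPINB4 (chr18:63644257-63644506, minus strand) and SERPINB3 (chr18:63661894-63662143, minus strand) were identical at 247 of 250 positions (98.8%). The capitals mark the 3 positions that differ, which are G126A, G201A and C228T from SERPINB3 to SERPINB4, counted from 1 at the 5′ end.
SERPINB4: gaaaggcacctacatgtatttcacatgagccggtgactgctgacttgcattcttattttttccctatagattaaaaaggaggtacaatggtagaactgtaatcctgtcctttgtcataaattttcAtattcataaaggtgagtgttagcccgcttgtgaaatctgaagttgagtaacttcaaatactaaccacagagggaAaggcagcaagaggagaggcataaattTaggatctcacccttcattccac
SERPINB3: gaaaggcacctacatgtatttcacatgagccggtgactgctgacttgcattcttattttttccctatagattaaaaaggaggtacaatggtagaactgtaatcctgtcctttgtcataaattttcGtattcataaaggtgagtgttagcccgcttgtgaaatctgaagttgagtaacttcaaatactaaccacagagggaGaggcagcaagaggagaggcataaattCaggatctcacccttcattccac

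In the next 4 windows the capitals mark matches to 5 motifs that were searched on both strands. The motifs were TTCNNNGAA (STAT), TGANTCA (AP-1), TTGCNNAA (C/EBP), GGGA and CC with any 4 bases between them (NF-kB) and the TATA box (TATAAA). The windows are SERPINB2 (chr18:63887455-63887704, plus strand), SERPINB7 (chr18:63752807-63753056, plus strand, the first of 3 annotated starts), SERPINB1 (chr6:2841864-2842113, minus strand) and SERPINB9 (chr6:2903310-2903559, minus strand).
SERPINB2: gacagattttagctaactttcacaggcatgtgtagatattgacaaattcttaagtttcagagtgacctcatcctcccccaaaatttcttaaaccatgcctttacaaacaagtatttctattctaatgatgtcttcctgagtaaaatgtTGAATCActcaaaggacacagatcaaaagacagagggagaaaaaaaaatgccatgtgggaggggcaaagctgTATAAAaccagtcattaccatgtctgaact
SERPINB7: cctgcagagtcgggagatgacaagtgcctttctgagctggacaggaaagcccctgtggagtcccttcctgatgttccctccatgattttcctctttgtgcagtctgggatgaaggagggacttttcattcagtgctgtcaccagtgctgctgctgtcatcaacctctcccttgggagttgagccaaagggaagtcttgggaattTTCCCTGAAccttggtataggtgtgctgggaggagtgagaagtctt
SERPINB1: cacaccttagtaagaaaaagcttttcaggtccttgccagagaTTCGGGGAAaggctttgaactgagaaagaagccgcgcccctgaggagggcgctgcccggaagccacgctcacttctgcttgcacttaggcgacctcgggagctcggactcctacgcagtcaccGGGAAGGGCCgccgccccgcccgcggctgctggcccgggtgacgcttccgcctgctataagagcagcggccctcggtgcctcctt
SERPINB9: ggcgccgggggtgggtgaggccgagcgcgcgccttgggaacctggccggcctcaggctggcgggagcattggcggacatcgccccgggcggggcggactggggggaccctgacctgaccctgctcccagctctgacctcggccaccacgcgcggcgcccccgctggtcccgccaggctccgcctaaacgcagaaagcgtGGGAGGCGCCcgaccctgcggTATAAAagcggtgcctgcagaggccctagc
SERPINB2 held an AP-1 match 102 to 96 bases before the start and a TATA match 30 to 25 bases before it. SERPINB7 held a STAT match 46 to 38 bases before its first start, and the windows of its other 2 starts held 2 AP-1 matches each, with 2 TATA matches in 1 of these windows as well. SERPINB1 held a STAT match 208 to 200 bases and an NF-kB match 85 to 76 bases before the start, and SERPINB9 an NF-kB match 51 to 42 bases and a TATA match 30 to 25 bases before it. The SERPINB4 and SERPINB3 windows held none of the 5. Over all 17 windows of the 11 clade B serpins in the table, 4 windows held a STAT match, 7 an AP-1, 2 a C/EBP, 3 an NF-kB and 5 a TATA match. Starts of the same gene count separately here, and some windows of SERPINB6 overlap, so the windows are not independent. Of all 35116 promoter windows of this length, 6.57% held the STAT, 6.57% the AP-1, 9.05% the C/EBP, 22.6% the NF-kB and 10.7% the TATA motif. Matches are no evidence of binding, and among the members that were not called SERPINB8 had matches to 4 of the motifs, STAT, AP-1, C/EBP and TATA, of which the TATA matches on both strands overlap. SERPINB5, which was not called either, held an AP-1 match. SERPINB10 has no entry in the table.

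In MDA-MB-231-hOSM 6 of the 9 measured members were higher and the remaining 3 were not called in either direction. Over the whole array 4.16% of transcript clusters were called, 2.60% higher and 1.57% lower. Without SERPINB2, 5 of 8 members were called, all higher; of the 77 transcript clusters that the spreadsheet alone names, 50 were called (64.9%). Over the 9 members the median log2 fold change was 2.28 (2.11 without SERPINB2), and over all transcript clusters it was −0.03. The RNA was taken in bulk, so a high level in some cells and a lower one in all cells cannot be told apart.

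**Figure D1:**
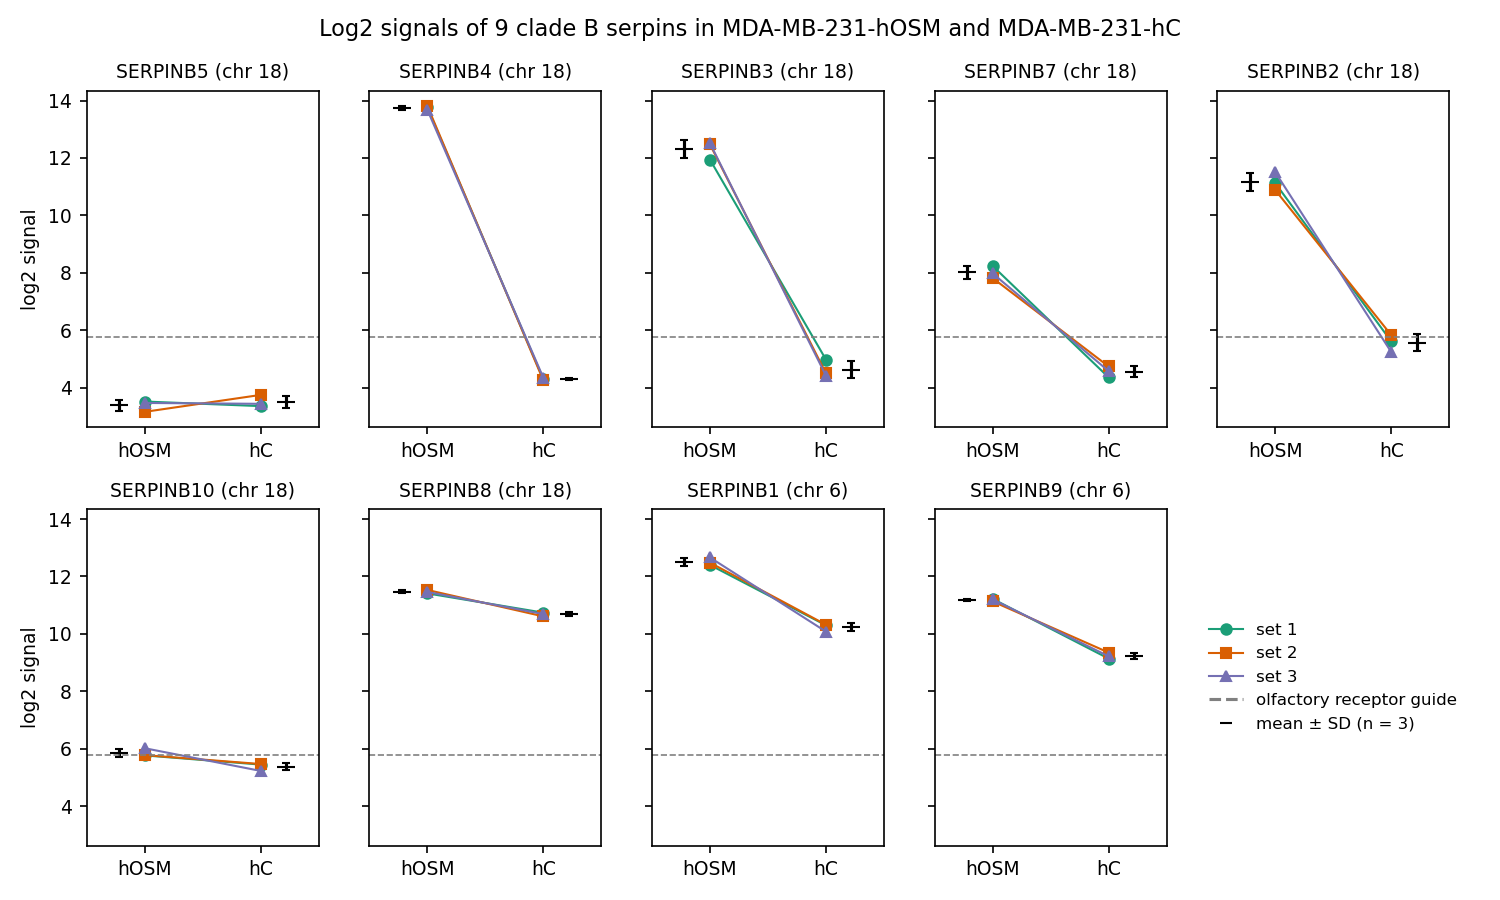
Log2 signal (y axis) of 9 clade B serpins on each array of MDA-MB-231-hOSM (left) and MDA-MB-231-hC (right), with a line for each of 3 sets, bars for the mean ± SD (n = 3) and a dashed line at 5.78, the olfactory receptor guide. SERPINB4, SERPINB3 and SERPINB7 lie above the guide on all MDA-MB-231-hOSM arrays and below it on all MDA-MB-231-hC arrays, whereas SERPINB1, SERPINB8 and SERPINB9 lie above it in both lines. Spread between passages may be missing from the SD.

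The largest differences were in SERPINB4 and SERPINB3, which encode the squamous cell carcinoma antigens. SERPINB4 is known to trap chymotrypsin-like enzymes such as cathepsin G and mast cell chymase, and SERPINB3 cysteine cathepsins such as cathepsin L, K and S. SERPINB4 had log2 signals of 13.76, 13.81 and 13.68 in MDA-MB-231-hOSM, against 4.30, 4.26 and 4.35 in MDA-MB-231-hC. The arrays of each line lay far apart from those of the other. How far SERPINB4 varied between passages cannot be read from the spread within a line. Its log2 fold change of 9.45 (SE 0.12, 95% interval 9.15 to 9.74, adjusted p = 1.75e-06 from limma) was at rank 2 of 21448, behind OSM itself. SERPINB3 had log2 signals of 11.94, 12.47 and 12.51 in MDA-MB-231-hOSM, against 4.98, 4.50 and 4.42 in MDA-MB-231-hC. Its smallest difference was in set 1, and the groups did not overlap. With a log2 fold change of 7.67 (SE 0.23, 95% interval 7.11 to 8.23, adjusted p = 5.60e-05) it was at rank 4. Because all MDA-MB-231-hC arrays were below the guide for both genes, the folds of 698 and 204 set a signal against background. The coding sequences of these neighbours are known to be near-identical, and the probe sequences were not used here, so how much of each signal comes from the other gene was not tested.

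SERPINB2 encodes plasminogen activator inhibitor 2, which blocks urokinase and tissue plasminogen activator. Its log2 signals were 11.12, 10.88 and 11.50 in MDA-MB-231-hOSM, against 5.61, 5.83 and 5.24 in MDA-MB-231-hC. All MDA-MB-231-hOSM arrays were clearly higher, while 1 of the 3 MDA-MB-231-hC arrays reached just over the guide. The difference was 5.61 on the log2 scale (SE 0.23, adjusted p = 0.000149), or 48.7-fold, over a mean in MDA-MB-231-hC that was under the guide. SERPINB7, or megsin, is an epidermal serpin whose loss in people causes a thickening of the palms and soles. Its log2 signals were 8.24, 7.82 and 7.98 in MDA-MB-231-hOSM, against 4.36, 4.74 and 4.58 in MDA-MB-231-hC. The groups did not overlap, and all MDA-MB-231-hC arrays stayed under the guide. This was a log2 fold change of 3.45 (SE 0.17, adjusted p = 0.000302), or 11.0-fold, which also sets a signal against background.

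The measured members on chromosome 6 were well above the guide in both lines. SERPINB1 encodes the leukocyte elastase inhibitor, which acts on neutrophil elastase, cathepsin G and proteinase 3. It had log2 signals of 12.40, 12.48 and 12.66 in MDA-MB-231-hOSM, against 10.30, 10.32 and 10.08 in MDA-MB-231-hC. Set 3 gave the largest difference. The log2 fold change was 2.28 (SE 0.14, adjusted p = 0.000559), or 4.86-fold. SERPINB9 encodes the inhibitor of granzyme B, by which cytotoxic lymphocytes protect themselves from their own granules. It had log2 signals of 11.22, 11.13 and 11.20 in MDA-MB-231-hOSM, against 9.14, 9.35 and 9.22 in MDA-MB-231-hC. The lines did not overlap. The log2 fold change was 1.95 (SE 0.13, adjusted p = 0.000586), or 3.86-fold.

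The members that did not pass were SERPINB8, SERPINB10 and SERPINB5. SERPINB8, an inhibitor of the proprotein convertase furin, had log2 signals of 11.41, 11.53 and 11.46 in MDA-MB-231-hOSM, against 10.74, 10.61 and 10.69 in MDA-MB-231-hC. It was well above the guide and its arrays did not overlap, but the log2 fold change of 0.79 (95% interval 0.49 to 1.09, adjusted p = 0.0130) remained under the 2-fold limit. SERPINB10, or bomapin, a nuclear serpin of blood-forming cells, had log2 signals of 5.77, 5.78 and 6.02 in MDA-MB-231-hOSM, against 5.45, 5.47 and 5.23 in MDA-MB-231-hC. These values lie around the guide in MDA-MB-231-hOSM, with 1 array above it, and below it in MDA-MB-231-hC. Against 5.71, the percentile in MDA-MB-231-hOSM alone, all arrays of that line lay above for SERPINB10. Its log2 fold change of 0.47 (95% interval 0.12 to 0.83, adjusted p = 0.0901) was under the 2-fold limit, and the adjusted p lay between 0.198 and 0.306 with any set left out. SERPINB5, or maspin, which does not inhibit proteases in the usual way and is known as a tumor suppressor of the breast, had log2 signals of 3.52, 3.16 and 3.47 in MDA-MB-231-hOSM, against 3.36, 3.75 and 3.44 in MDA-MB-231-hC. All 6 arrays were far below the guide and the groups overlapped, so that a change in either direction could not be judged from this signal (log2 fold change −0.13, 95% interval −0.55 to 0.29, adjusted p = 0.660). In 8 of the 9 members (7 of 8 without SERPINB2) the 3 MDA-MB-231-hOSM arrays lay above the 3 MDA-MB-231-hC arrays, a pattern that 22.2% of all transcript clusters showed. The reverse held for 27.7% of them, so that in 50.0% the lines did not overlap.

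**Figure D2:**
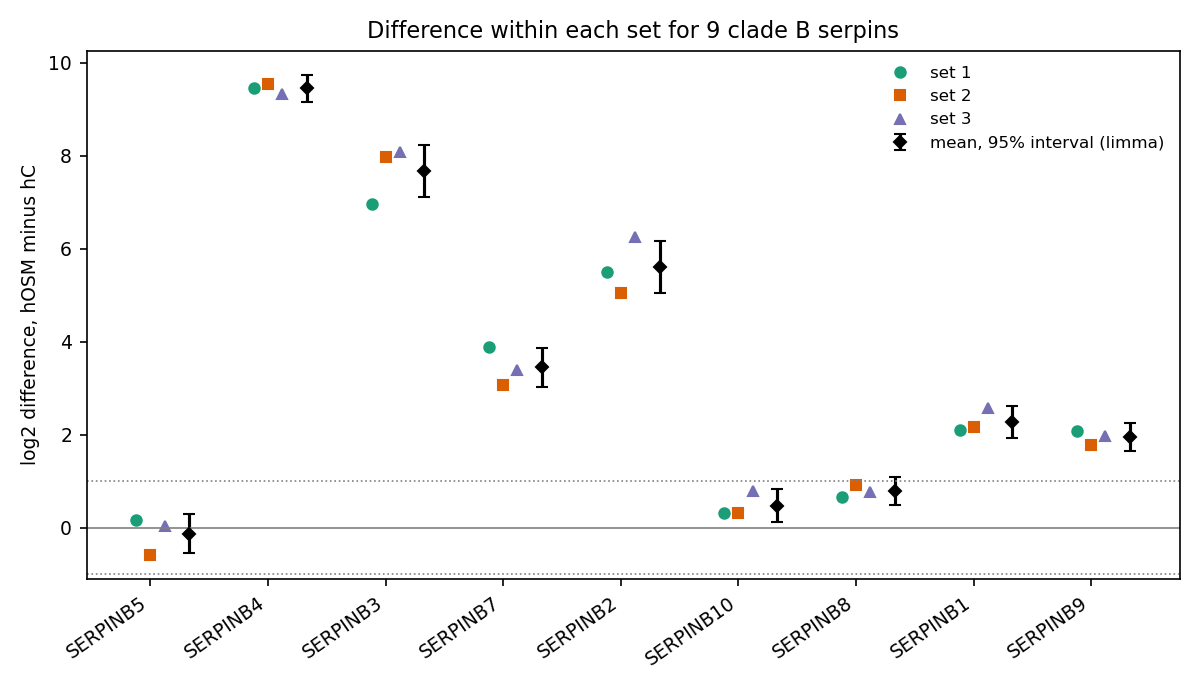
Log2 difference, MDA-MB-231-hOSM minus MDA-MB-231-hC (y axis), for 9 clade B serpins (x axis), with a symbol for each of 3 sets, a diamond for the mean and bars for its 95% interval from limma; dotted lines mark 2-fold. SERPINB4 differs least between sets for its size (9.33 to 9.55), SERPINB2 and SERPINB3 span 5.05 to 6.26 and 6.96 to 8.09, and SERPINB5 lies on both sides of 0.

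Spread between passages may be missing from the deposited values, so variation of the members among passages cannot be read from them. The differences behind the means given above are listed here set by set. They were 9.46, 9.55 and 9.33 for SERPINB4 and 6.96, 7.97 and 8.09 for SERPINB3 in sets 1, 2 and 3. For SERPINB2 they were 5.51, 5.05 and 6.26, and for SERPINB7 3.88, 3.08 and 3.40. No set gave the largest difference throughout, since set 1 was the highest for SERPINB7 and SERPINB9, set 2 for SERPINB4 and SERPINB8, and set 3 for SERPINB1, SERPINB2, SERPINB3 and SERPINB10. Leaving out both arrays of any 1 set left the 6 called members called.

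By chromosome, 4 of the 7 members on chromosome 18 were higher, with a median log2 fold change of 3.45 and a range from −0.13 to 9.45 (3 of 6 and a median of 2.12 without SERPINB2). On chromosome 6 the 2 measured members were both higher, at 1.95 and 2.28. In MDA-MB-231-hC the called members on chromosome 18 had mean log2 signals under the guide, from 4.30 for SERPINB4 to 5.56 for SERPINB2, whereas SERPINB1 and SERPINB9 on chromosome 6 lay at 10.23 and 9.24, above it. Genes are not replicates and no difference between the chromosomes was tested.

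Along chromosome 18 the called serpin genes lay in 2 adjacent pairs, SERPINB4 with SERPINB3 and SERPINB7 with SERPINB2, and uncalled ones stood between and outside them. In the RefSeq order the cluster runs SERPINB5, SERPINB12, SERPINB13, SERPINB4, SERPINB3, SERPINB11, SERPINB7, SERPINB2, SERPINB10, HMSD and SERPINB8. SERPINB12, an inhibitor of trypsin-like enzymes, had a log2 fold change of 0.38 (adjusted p = 0.110), SERPINB13 (headpin), an inhibitor of cathepsins K and L, of 0.69 (adjusted p = 0.118) and SERPINB11 (epipin) of 0.47 (adjusted p = 0.0559). None of these 3 passed, and all lay below the guide on every array. The differences of SERPINB13 within sets ran from 0.01 in set 3 to 1.31 in set 1. SERPINB11, the gene between the called pairs, had log2 signals of 4.23, 4.20 and 4.15 in MDA-MB-231-hOSM, against 3.68, 3.72 and 3.78 in MDA-MB-231-hC. HMSD, a short gene with a serpin domain, had log2 signals of 8.10, 7.82 and 8.03 in MDA-MB-231-hOSM, against 6.89, 7.21 and 6.99 in MDA-MB-231-hC (log2 fold change 0.95, adjusted p = 0.0142), just under the fold limit.

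The nearest measured protein-coding genes on each side of a cluster were taken whatever their distance, so they need not lie close to it. Of the 11 measured genes other than serpins within or flanking the chromosome 18 cluster, KDSR and CCDC102B were higher, BCL2 was lower and 8 were not called. Their median log2 fold change was 0.03, and over the whole array 4.16% of transcript clusters were called. BCL2, the apoptosis inhibitor, had a log2 fold change of −1.20 (adjusted p = 0.00354), with log2 signals of 6.77, 6.58 and 6.62 in MDA-MB-231-hOSM and of 7.77, 7.92 and 7.89 in MDA-MB-231-hC. KDSR, an enzyme of sphingolipid synthesis, was 2.01-fold higher (adjusted p = 0.0112) and under 2-fold without set 3 (log2 fold change 0.85, adjusted p = 0.111). CCDC102B was 3.82-fold higher (adjusted p = 0.0187), with differences of 3.05, 1.18 and 1.57 in sets 1, 2 and 3. Leaving out set 1 brought the log2 fold change down to 1.38 in place of 1.93, and leaving out set 3 ended the call (adjusted p = 0.158). VPS4B, the nearest measured gene before SERPINB5, had a log2 fold change of 0.01, and CDH7, the nearest measured one after SERPINB8, of 0.03. Beside SERPINB1 and SERPINB9 on chromosome 6, none of 10 measured genes was called, and their log2 fold changes ran from −0.47 to 0.39.

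**Figure D3:**
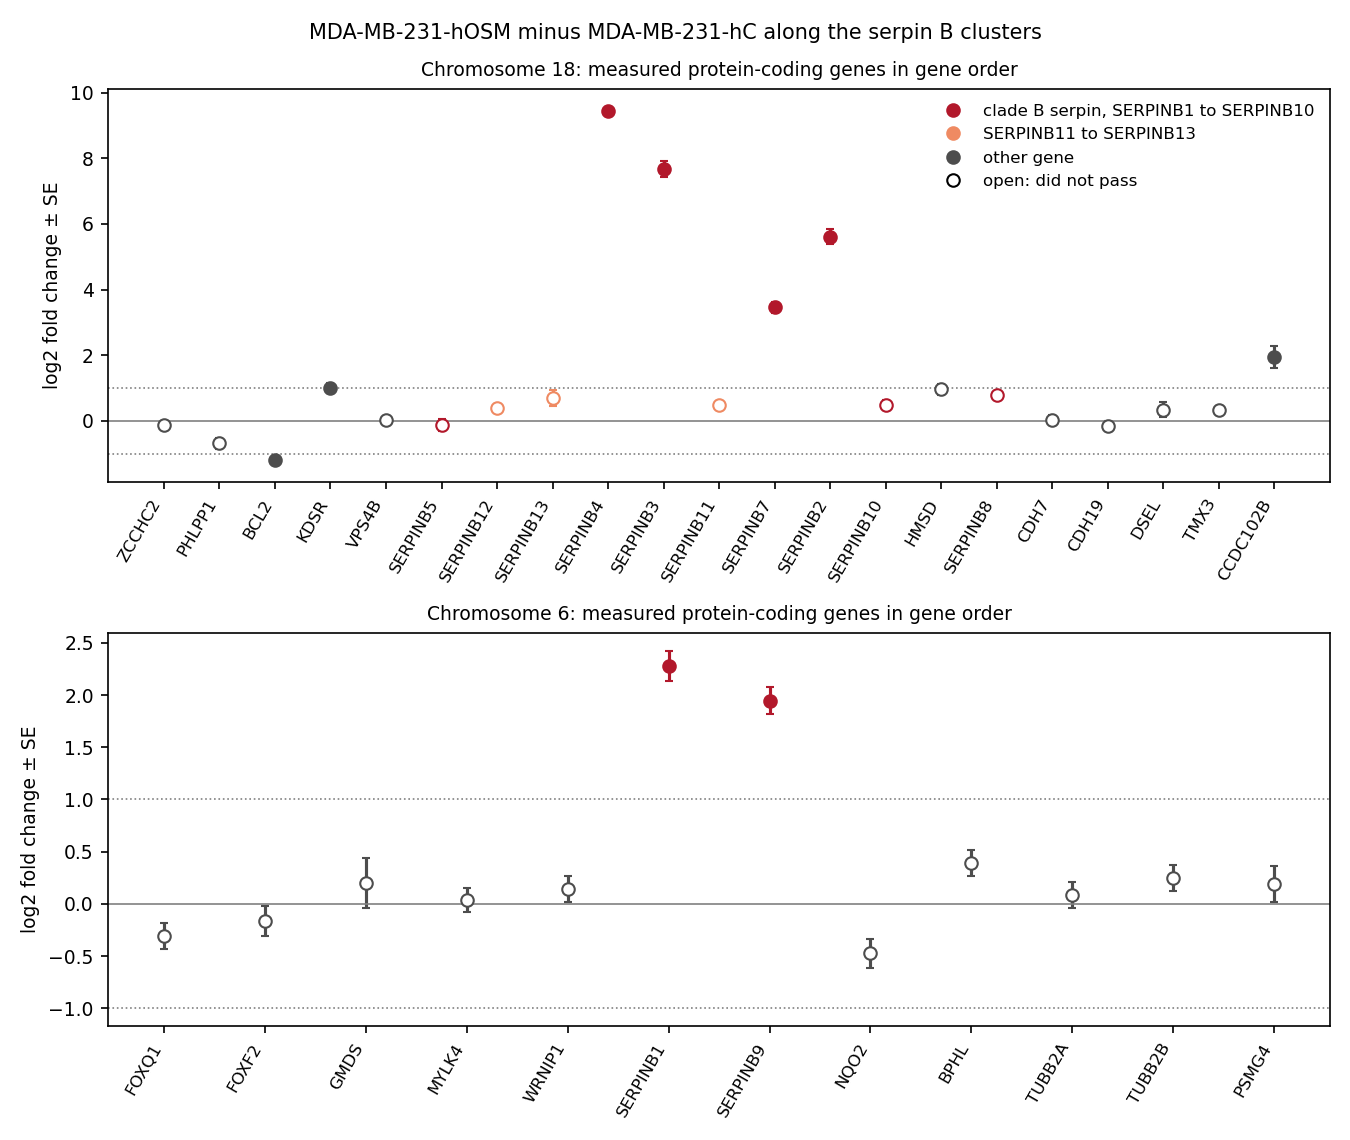
Log2 fold change ± SE (y axis; MDA-MB-231-hOSM minus MDA-MB-231-hC) of measured protein-coding genes in their order along chromosomes 18 and 6 (x axis, evenly spaced), with filled symbols for genes called and open symbols for genes that did not pass; dotted lines mark 2-fold. SERPINB4, SERPINB3, SERPINB7 and SERPINB2 stand between serpin genes whose log2 fold changes lie from −0.13 to 0.79, and the 10 neighbours of SERPINB1 and SERPINB9 stay within −0.47 to 0.39.

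Among serpins of other clades, most of which are secreted, 3 of 21 measured genes were higher, none was lower and 18 were not called. Their median log2 fold change was 0.01. The share called higher over the whole array was 2.60%. SERPINA1, which encodes the elastase inhibitor α1-antitrypsin, had log2 signals of 8.14, 9.60 and 8.91 in MDA-MB-231-hOSM, against 5.17, 3.82 and 4.46 in MDA-MB-231-hC (log2 fold change 4.40, adjusted p = 0.00333). Its arrays spread more widely than those of any called clade B member, and the call was lost without set 3 (4.38, adjusted p = 0.107). SERPINE2, or protease nexin 1, was 7.23-fold higher (adjusted p = 0.000302), and SERPINH1, a collagen chaperone with no known protease target, 2.32-fold (adjusted p = 0.00331). Of the 21 genes 15 lay below the guide in both lines, as did 1 of the 9 clade B members.

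The proteases that clade B serpins are known to act on went both ways. Of 14 measured, 4 were called higher, 1 lower and 9 not at all, with a median log2 fold change of 0.30. Over all transcript clusters 4.16% were called and the median was −0.03. Of the 14 proteases 5 lay below the guide in both lines. PLAU, which encodes urokinase, a target of SERPINB2, had log2 signals of 11.28, 11.39 and 11.42 in MDA-MB-231-hOSM, against 12.66, 12.57 and 12.49 in MDA-MB-231-hC, a log2 fold change of −1.21 (adjusted p = 0.00325). PLAT, which encodes tissue plasminogen activator, the other target of SERPINB2, had log2 signals of 15.34, 15.38 and 15.92 in MDA-MB-231-hOSM, against 12.82, 12.90 and 12.34 in MDA-MB-231-hC, and was 7.26-fold higher (adjusted p = 0.00125). The 2 activators thus differed between the lines in opposite directions.

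Among cysteine proteases, CTSL, which encodes cathepsin L, a target of SERPINB3, was 8.17-fold higher, with log2 signals of 14.51, 14.14 and 14.36 in MDA-MB-231-hOSM, against 11.14, 11.51 and 11.27 in MDA-MB-231-hC (adjusted p = 0.000407). CTSS (cathepsin S) was 4.90-fold higher (adjusted p = 0.00249) and CASP1, a caspase that SERPINB9 can bind, 6.25-fold (adjusted p = 0.000216). CTSK, which encodes cathepsin K, did not pass, at mean log2 signals of 6.66 in MDA-MB-231-hOSM and 6.28 in MDA-MB-231-hC (adjusted p = 0.186). CTSV, which encodes the related cathepsin V, did not pass either, at 7.31 ± 0.32 in MDA-MB-231-hOSM and 8.17 ± 0.36 in MDA-MB-231-hC (mean log2 signal ± SD, n = 3 arrays each). All its MDA-MB-231-hOSM arrays were the lower ones, with differences of −0.16, −1.51 and −0.91 in sets 1, 2 and 3 (log2 fold change −0.86, adjusted p = 0.0753 from limma). FURIN, the target of SERPINB8, had a log2 fold change of 0.95 (adjusted p = 0.00615), under the 2-fold limit like SERPINB8 itself. Of the granule proteases that SERPINB1, SERPINB4 and SERPINB9 are known to trap, ELANE (neutrophil elastase) was not analysed here, as no named transcript cluster carried its symbol, and the 5 measured ones did not pass. GZMB, which encodes granzyme B, had mean log2 signals of 8.06 in each line (log2 fold change 0.00, adjusted p = 0.990), and CTSG, PRTN3, CMA1 and GZMM lay below the guide in both lines.

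**Figure D4:**
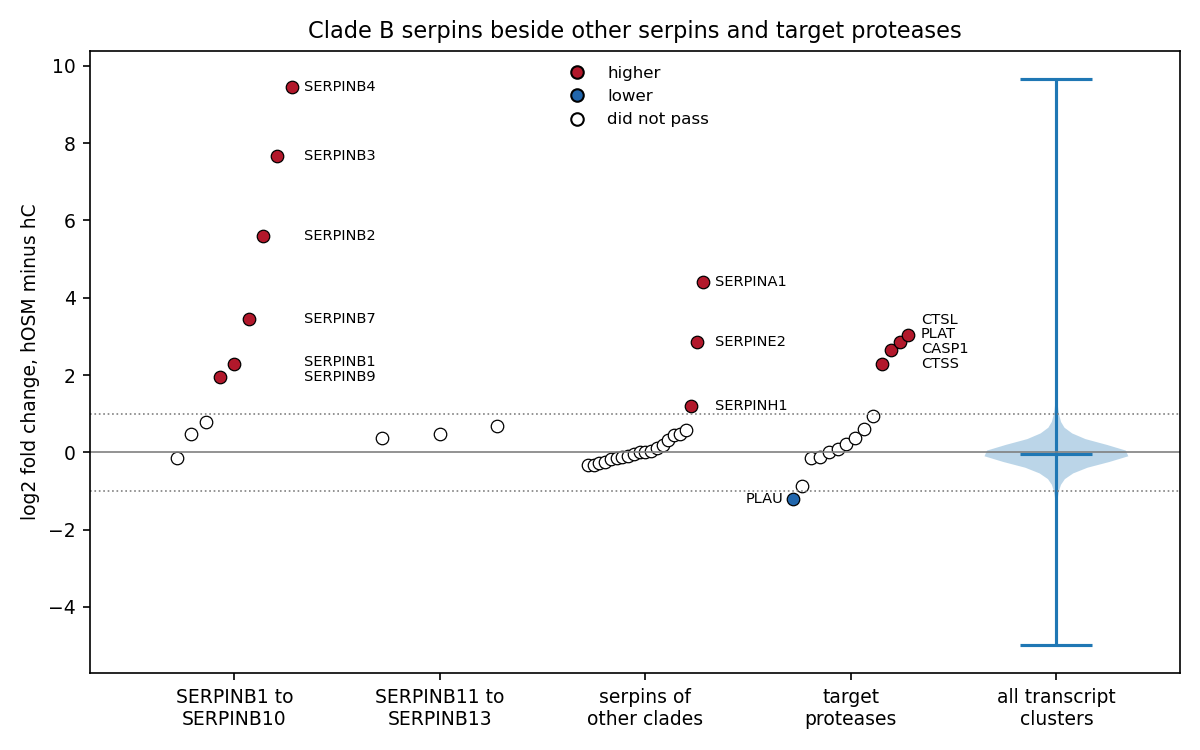
Log2 fold change (y axis; MDA-MB-231-hOSM minus MDA-MB-231-hC) of clade B serpins, serpins of other clades and target proteases, 1 point per gene, beside the distribution over 21448 transcript clusters (the line across it marks the median, −0.03, and the end bars the extremes). Clade B members reach 9.45, serpins of other clades 4.40 and target proteases 3.03, and PLAU is the protease called lower.

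Because several clade B genes are otherwise known from squamous epithelium and from leukocytes, markers of those cells were read on the same arrays. None of 15 measured squamous markers, among them KRT5, KRT14, KRT13, IVL and DSG3, was called, and all 15 lay below the guide in both lines. Their summed log2 signal ran from 66.6 to 67.7 in MDA-MB-231-hOSM and from 66.6 to 67.7 in MDA-MB-231-hC. TP63, KRT6A and KRT6B, also on the squamous list, were not analysed here, as no named transcript cluster carried their symbols. Of 11 myeloid markers none was called and 8 lay below the guide in both lines, with a summed log2 signal from 60.3 to 60.7 in MDA-MB-231-hOSM and from 60.6 to 60.9 in MDA-MB-231-hC. PTPRC, the common leukocyte antigen, was at 4.94 in MDA-MB-231-hOSM and 5.07 in MDA-MB-231-hC. CD68, a lysosomal protein that other cells hold as well, was at 12.60 in MDA-MB-231-hOSM and 12.29 in MDA-MB-231-hC. TYROBP also lay above the guide, at 6.40 in MDA-MB-231-hOSM and 6.03 in MDA-MB-231-hC. CSF1R was just above it in MDA-MB-231-hOSM, at 5.87, and below it in MDA-MB-231-hC, at 5.44. Of 7 lymphocyte markers none was called and 6 lay below the guide in both lines. Their summed log2 signal ran from 32.6 to 32.9 in MDA-MB-231-hOSM and from 32.0 to 32.4 in MDA-MB-231-hC. CD79A lay above the guide, at 7.03 in MDA-MB-231-hOSM and 6.79 in MDA-MB-231-hC.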

How the data were processed

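RNA of 6 samples, 3 passages of each line, was measured on Human Clariom S arrays. The authors deposited log2 signals for 21448 transcript clusters, made with RMA in the Transcriptome Analysis Console 4.0 according to the submitters' processing notes (build, library version and RMA variant not given in the sources used here). The values were used as deposited. The platform annotation named 17709 transcript clusters and the study's spreadsheet a further 77, and 3662 stayed unnamed. The spreadsheet lists changed genes, and its fold changes were not used. For a gene with several transcript clusters the one with the highest mean was kept.

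The lines were compared with limma 3.58.1 (R 4.3.3; lmFit, eBayes) over all transcript clusters with the set as a block. Pairing rests on the labels, which number the sets alike in both lines grown in parallel. Over transcript clusters the SD of set means had a median of 0.00764, against 0.225 for the differences within a set. The p-values set that difference against its variation over 3 sets, which limma moderated with that of all transcript clusters. They do not measure spread shared by both arrays of a set, and 3 arrays per line limit the precision. The fit was tested on simulated data. The normalization, filter, thresholds, averages, block and sets were varied 1 at a time.

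Named genes are all members, SERPINB11 to SERPINB13, OSM and every called gene of the lists; HMSD, VPS4B, CDH7, CTSK, CTSV, FURIN, GZMB and other uncalled genes were named after their values were seen. Members and lists were chosen with earlier results of these data known. Motifs were counted in RefSeq promoter windows of GRCh38.p14, 250 bases before each start. Protein sequences were not used here, and the result for 1 gene of the lists is left out.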

Additional observations from a re-analysis of the deposited data

How the results depend on the processing

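The 6 called members kept their direction and call in the settings tried, which were no block, quantile normalization, median centring, dim transcript clusters left out, eBayes with trend and robust settings, a stricter adjusted p, no fold limit, Tukey biweight averages and each set left out. Dropping the fold limit can only add calls. The filter on dim transcript clusters used the mean over all 6 arrays. SERPINB2, SERPINB3, SERPINB4 and SERPINB7 passed it only through their MDA-MB-231-hOSM arrays, so this setting adds no separate support for them. The stricter cut-off and the biweight averages reused the adjusted p-values of the main fit, so biweight averages could change a call only through the fold. Without the replicate block 899 transcript clusters were called, 561 higher and 338 lower, against 893, 557 and 336 with it. In these settings 6 members were called, except that with no fold limit SERPINB8 and SERPINB10 passed as well. Without that limit 4217 transcript clusters were called, 1977 higher and 2240 lower. Leaving out each set in turn gave 663 to 874 calls, 413 to 524 of them higher and 250 to 350 lower, and 6 of the members each time. The log2 fold change of SERPINB4 ran from 9.40 to 9.51 over all settings, that of SERPINB3 from 7.47 to 8.03 and that of SERPINB2 from 5.28 to 5.89. SERPINB5, at −0.13, turned to 0.066 with biweight averages and ran from −0.28 to 0.095 with a set left out. SERPINB8 passed the adjusted p without set 1 (0.0826) but not without set 2 (0.112) or set 3 (0.125). Leaving out dim transcript clusters removed SERPINB5 and SERPINB10. No clade B serpin had more than 1 transcript cluster, so the choice among rows changed nothing and was not run.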
